A study of Homo sapiens with 6 samples.

Results

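The SNAR genes encode a family of small noncoding RNAs, and their members were taken as all gene symbols in the platform annotation that start with SNAR-. The rule found 8 genes, namely SNAR-B1, SNAR-C1, SNAR-D, SNAR-F, SNAR-G1, SNAR-G2, SNAR-H and SNAR-I, carried by 14 of the 53617 probe sets on the array. Several of these probe sets held identical values on every array, which left 10 distinct profiles. The 14 probe sets belong to 8 of the 14884 genes named in the annotation, while RefSeq lists 28 SNAR genes, among them 14 SNAR-A genes that were not analysed here. Total RNA was hybridised to Affymetrix arrays, and all of it came from cultures of U-87 MG, a long-established line of human glioblastoma cells, so the replicates are cultures and not donors. In the EMF exposed group (3 arrays), dishes stood inside a Faraday chamber for 54 h, from 24 h after seeding, in electromagnetic fields sold as RGFIELDS and whose stated targets were HSP70, CHI3L1, the microRNA miR-381 and a mutated alpha-kinase 2 gene. In the unexposed group (3 arrays), dishes stood for the same time in a culture box outside the chamber, under the same gas and temperature. The comparison asks how transcript levels differed after exposure, and field, chamber and box cannot be told apart in it.

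RNA polymerase III transcribes these short, highly structured RNAs, which are bound by proteins that recognise double-stranded RNA. The family arose from Alu-like elements in African great apes and expanded into tandem arrays, and its RNAs are known from testis, from parts of the brain and at raised levels in immortalised and cancer cell lines. In RefSeq (assembly GRCh38.p14, used for names and neighbours) 26 of the 28 genes lie on chromosome 19, whereas SNAR-H lies on chromosome 2 and SNAR-I on chromosome 3. The genes measured here are 119 to 128 nt long. Members are so alike in sequence that a probe set named for 1 member may also bind others, so each signal below is uncertain as to the member.

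The arrays were closely alike, with medians of 3.96 to 3.99 on the log2 scale and pairwise correlations over all probe sets of 0.982 to 0.988. The 7 measured markers of U-87 MG and mesenchymal glioma, among them VIM, CD44 and FN1, had group means between 6.79 and 11.9 in exposed and between 6.87 and 12.1 in unexposed cells. The 5 germ cell markers, listed because testis is a known site of SNAR RNA, averaged 3.72 to 3.81 on exposed and 3.60 to 3.80 on unexposed arrays, and none passed the test (limma). PRM2 was the single one at an unadjusted p under 0.05, with 6.26 in exposed and 5.96 in unexposed cells. The immune list had 1 measured member, CD14, at 3.33 in exposed and 2.97 in unexposed cells. The part of these markers in the SNAR values was not tested.

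All 14 SNAR probe sets had higher mean values in exposed than in unexposed cells. Their log2 changes lay between 0.26 and 0.75, or 1.20-fold to 1.68-fold, and the median over the 10 distinct profiles was 0.40. Over all 53617 probe sets the median was 0.0012 and 50.2% were positive. In 12 of the 14 probe sets the 3 exposed values lay above the 3 unexposed values, as they did in 9.46% of all probe sets. Because the members share sequence and several share identical values, the 14 probe sets are not 14 independent readings of the exposure. By limma with Benjamini-Hochberg adjustment over all probe sets, 0 of 14 passed an adjusted p of 0.05, against 0.345% of all probe sets that passed as higher. At an unadjusted p under 0.05 there were 13 of 14, against 6.26% of all probe sets that were higher at this p. When each gene was represented by its brightest probe set and p-values were adjusted over the 14884 genes, 1 of the 8 SNAR genes, SNAR-H, passed, against 1.4% of all genes that passed as higher. When the probe sets of each gene were averaged and the fit was run on named genes alone, 6 of the 8 passed, against 3.44% of all genes that passed as higher. These were SNAR-H, SNAR-B1, SNAR-C1, SNAR-I, SNAR-G2 and SNAR-D, with limma adjusted p of 0.00534 to 0.0469. SNAR-H, SNAR-I, SNAR-G2 and SNAR-D have 1 probe set each, so their values are the same in both fits and the fits differ in the variance that limma pools over genes. In RNA from a whole dish, more RNA per cell and more cells with the RNA cannot be told apart.

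**Figure D1:**
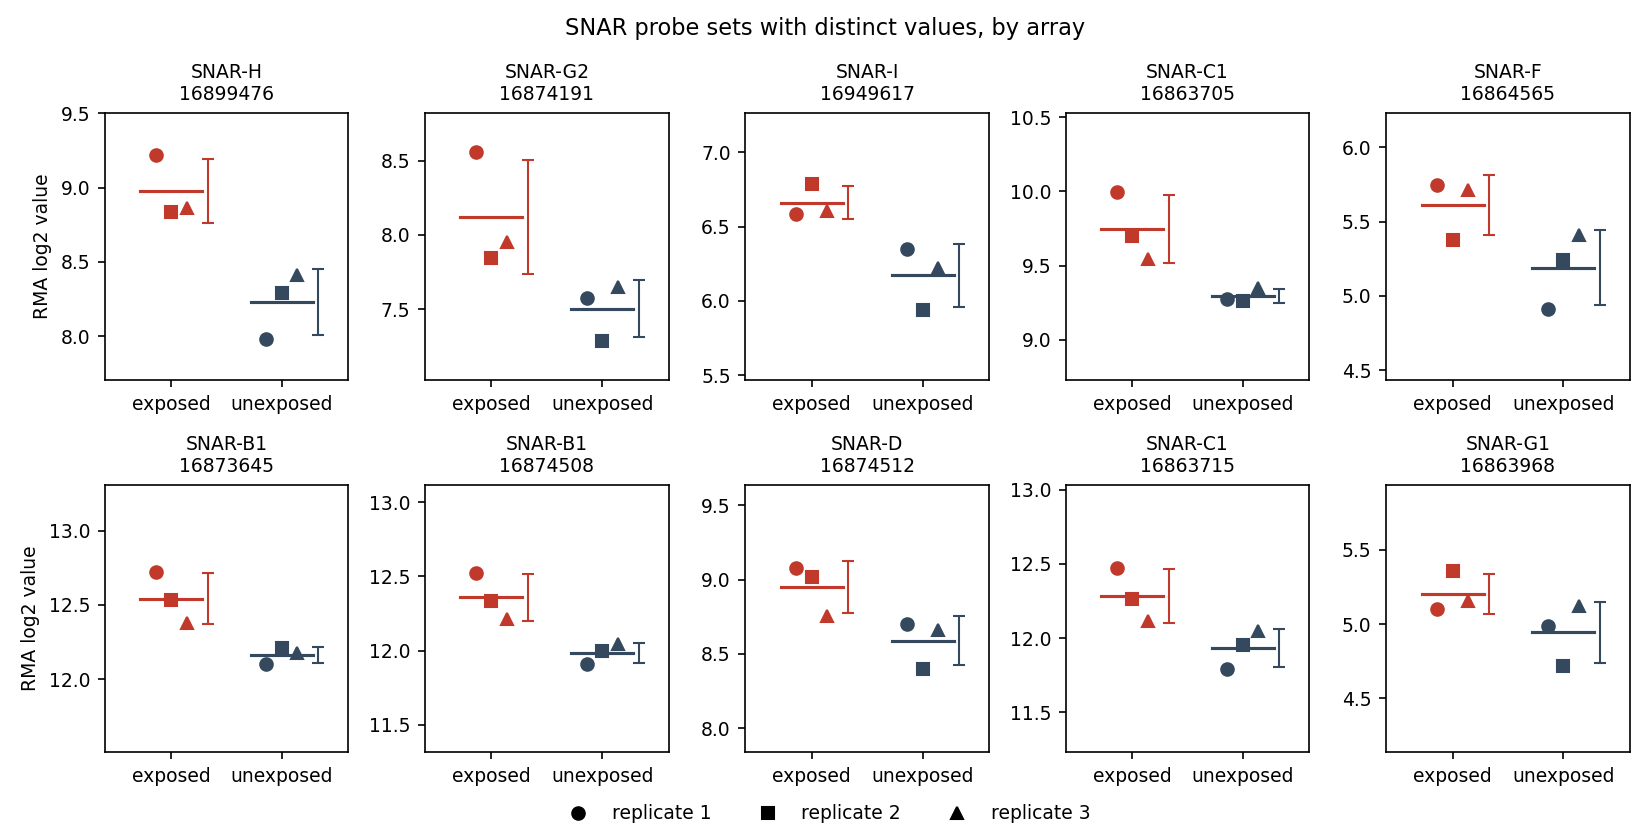
RMA log2 value (vertical axis, a window of the same height in each panel) of the 10 distinct SNAR profiles on the 3 exposed and 3 unexposed arrays. Points are arrays, horizontal lines group means and bars 1 SD. The groups overlap in SNAR-F and SNAR-G1 and are separate in the other 8 profiles.

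SNAR-H had the largest change of the family. Its probe set 16899476 stood at 9.22, 8.84 and 8.86 on the exposed arrays, against 7.98, 8.29 and 8.41 on the unexposed arrays. The lowest exposed value was 0.42 above the highest unexposed value. Exposed cells averaged 8.97 ± 0.21 and unexposed cells 8.23 ± 0.22 (SD, n = 3 each). The difference was 0.75 log2 (SE 0.14, 95% interval 0.42 to 1.07), or 1.68-fold. Of all probe sets, 0.630% had a larger positive change. Thus SNAR-H rose when judged among genes (limma adjusted p = 0.0372) and missed the threshold among probe sets (limma adjusted p = 0.0604). With the replicate number as a block the limma adjusted p over genes was 0.140, and without the mean-variance trend it was 0.163. In both of these fits 0 of all genes passed. With any 1 array left out it lay between 0.0601 and 0.124 for SNAR-H. There 0 of all genes passed as well, except without exposed replicate 3 (0.954% higher) and without unexposed replicate 1 (0.228% higher). The gene lies within the uncharacterised long noncoding genes LOC101927967 and LOC105374817 in RefSeq, neither of which carries a named probe set here.

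SNAR-B1 and SNAR-C1, members of the tandem arrays of chromosome 19, gave bright signals with separate groups in each of their 4 profiles. SNAR-B1 (probe set 16873645) stood at 12.72, 12.53 and 12.38 in exposed cells, against 12.10, 12.21 and 12.18 in unexposed cells. Exposed cells averaged 12.54 ± 0.17 and unexposed cells 12.16 ± 0.06 (SD, n = 3 each), and the change was 0.38 (SE 0.08, limma adjusted p = 0.0882 over probe sets and 0.0552 over genes). Without exposed replicate 3 the adjusted p over genes was 0.0348. The groups did not overlap. The annotation gives no name to 2 further probe sets that held the same values as this one. The other SNAR-B1 profile, of probe sets 16874508 and 16874510, had a change of 0.37 (SE 0.08, limma adjusted p = 0.0856). It stood at 12.52, 12.34 and 12.21 in exposed cells, against 11.91, 11.999 and 12.04 in unexposed cells.

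SNAR-C1 had 5 probe sets with 2 distinct profiles of different brightness. The dimmer one, shared by probe sets 16863705, 16863711 and 16863721, stood at 9.99, 9.70 and 9.55 in exposed cells, against 9.27, 9.26 and 9.35 in unexposed cells. Its change was 0.45 (SE 0.11, limma adjusted p = 0.106). Here the exposed arrays spread more widely than the unexposed arrays, with SDs of 0.23 and 0.05. The brighter one, shared by 16863715 and 16863719, stood at 12.47, 12.27 and 12.11 in exposed cells, against 11.79, 11.95 and 12.05 in unexposed cells, a change of 0.35 (SE 0.10, limma adjusted p = 0.158). In all SNAR-B1 and SNAR-C1 profiles exposed replicate 1 was the highest array. The highest value of the series was 13.8, and the 3 brighter profiles lay nearer to it than the dimmer SNAR-C1 profile.

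SNAR-G1 and SNAR-G2 lie among the chorionic gonadotropin beta genes, which encode the hormone subunit of the placenta. SNAR-G2 (16874191), next to CGB2, stood at 8.56, 7.84 and 7.96 in exposed cells, against 7.58, 7.29 and 7.65 in unexposed cells. The groups did not overlap, and exposed replicate 1 stood well above the other arrays. Its change was 0.62 (SE 0.19, limma adjusted p = 0.186), and 0.40 without exposed replicate 1. SNAR-G1 (16863968), next to CGB1, was dim, at 5.10, 5.36 and 5.16 in exposed cells, against 4.99, 4.72 and 5.12 in unexposed cells. Its groups overlapped, and its change was the smallest of the family, at 0.26 (95% interval -0.06 to 0.58, limma adjusted p = 0.476). Without unexposed replicate 2 it was 0.15. The hormone genes CGB1, CGB2, CGB3, CGB5, CGB7 and CGB8 had no named probe set. Of this neighbourhood 3 other genes were measured. All had negative changes that did not pass (limma), where 50.7% of all genes were positive. At an unadjusted p under 0.05 there was 1 of the 3, against 10.2% of all genes that were lower at this p. The 3 genes were the luteinizing hormone beta subunit LHB (-0.26), the neurotrophin NTF4 (-0.27) and the helicase RUVBL2 (-0.26).

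The other members lie apart from these clusters or at their edge. SNAR-I (16949617) stood at 6.59, 6.79 and 6.61 in exposed cells, against 6.35, 5.94 and 6.22 in unexposed cells. Its groups were separate and its change was 0.49 (SE 0.12, limma adjusted p = 0.117 over probe sets and 0.0736 over genes). SNAR-D (16874512) stood at 9.08, 9.02 and 8.75 in exposed cells, against 8.70, 8.40 and 8.66 in unexposed cells. Here the gap between the groups was 0.05, and the change was 0.36 (SE 0.11, limma adjusted p = 0.191). SNAR-F (16864565) stood at 5.75, 5.38 and 5.71 in exposed cells, against 4.91, 5.24 and 5.41 in unexposed cells. Exposed replicate 2 fell just below unexposed replicate 3, and the change was 0.42 (SE 0.16, limma adjusted p = 0.284).

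For a single profile, an exact two-sided permutation test of 3 against 3 arrays cannot go below 0.10. The 8 profiles whose groups were separate reached that value, and the exact p of SNAR-F and of SNAR-G1 was 0.20. Probe signals also depend on the probes, so the levels of different members do not rank their amounts of RNA. Whether SNAR-H changed more than other members was not tested.

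The 10 profiles moved together to different degrees over the 6 arrays. Across their 45 pairs, Pearson's r lay between 0.39 and 0.99 with a median of 0.82, and Spearman's rho between 0.37 and 1.00 with a median of 0.83. By exact permutation tests adjusted over the 45 pairs, 14 pairs passed by r and 0 by rho, with 17 at an unadjusted p under 0.05 by rho. Without the 2 arrays farthest from the median of the first member, r lay between 0.22 and 0.97 with a median of 0.79. These values mix the group difference with the spread among replicates. After the group means were taken out, the median r of the deviations was 0.51, and 14 of 45 pairs were negative.

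Among the 4 profiles of SNAR-B1 and SNAR-C1, r was 0.96 to 0.99 and the r of deviations 0.88 to 0.98, and these probe sets may share probes. SNAR-H followed them, with r of 0.93 to 0.97 and deviations at 0.72 to 0.91. For SNAR-H with SNAR-I, r was 0.67 over the 6 arrays and 0.96 without the 2 arrays farthest from the SNAR-H median. Their deviations, which were not tested, had an r of -0.54. SNAR-I and SNAR-G1 had an r of 0.89 (exact permutation test, adjusted p = 0.0515) and deviations at 0.85, but without the 2 farthest arrays their r was 0.35. On average over the 10 profiles, exposed replicate 1 stood 0.15 above and exposed replicate 3 stood 0.11 below the exposed mean. Exposed replicate 1 was the highest exposed array in 8 of 10 profiles, the exceptions being SNAR-I and SNAR-G1. Unexposed replicate 3 was the highest unexposed array in 7 of 10.

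**Figure D2:**
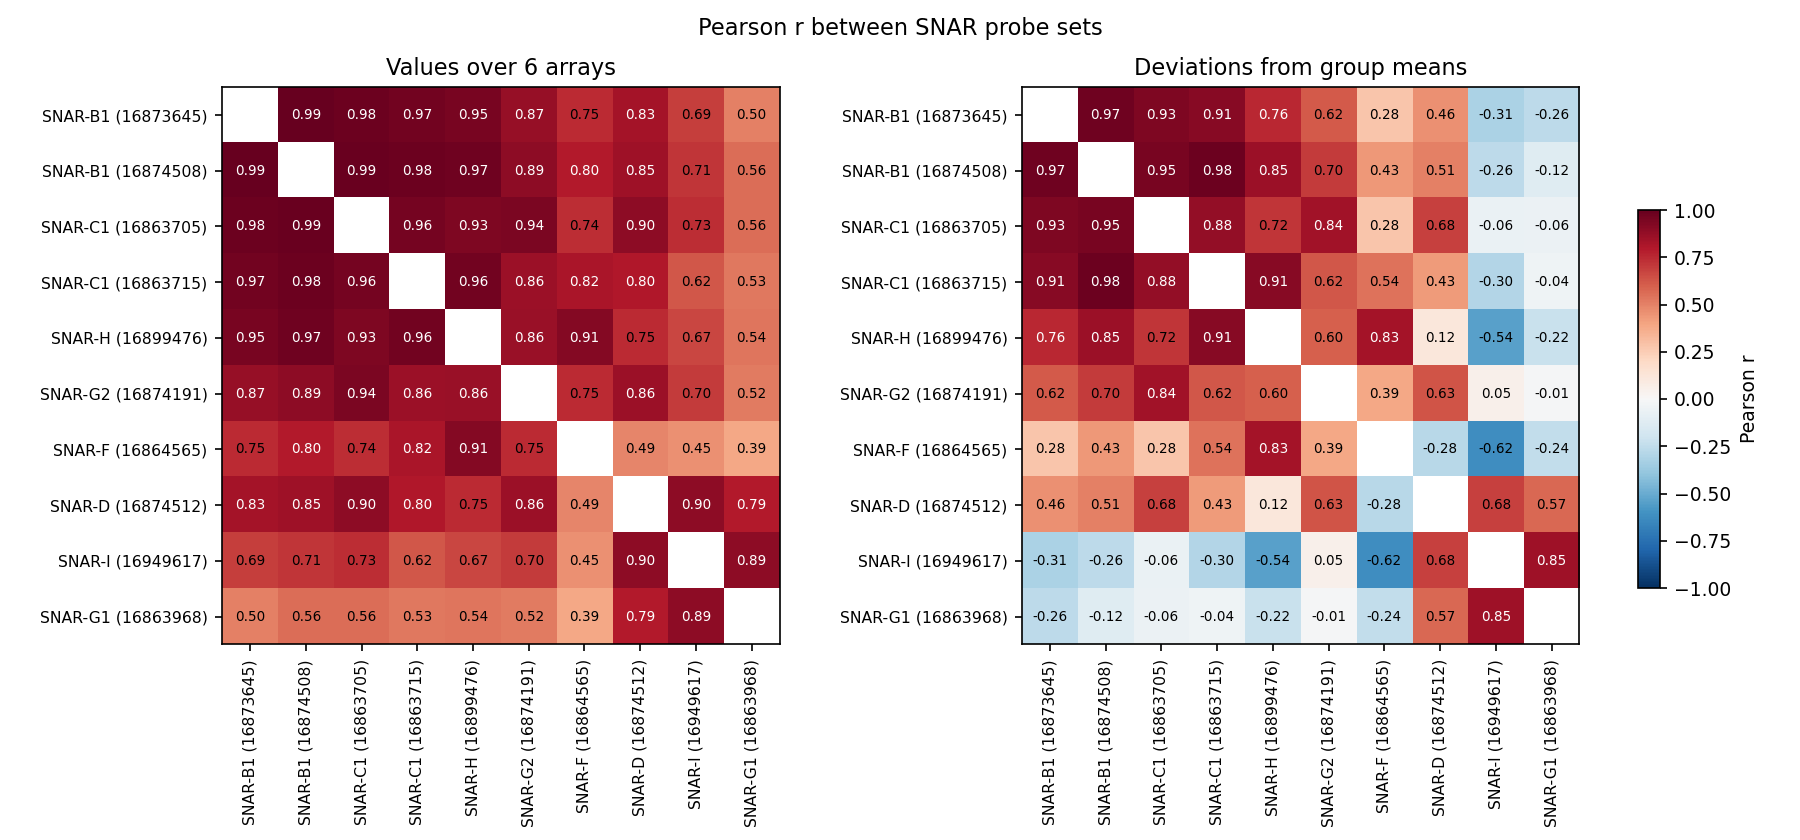
Pearson r between the 10 distinct SNAR profiles, for the values on the 6 arrays (left) and for their deviations from the group means (right), with r given by colour and printed in each cell. The pairs within SNAR-B1, SNAR-C1 and SNAR-H stay high on the right, while 14 of 45 pairs, most of them with SNAR-I or SNAR-G1, turn negative.

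Among named genes with a mean above the median of all probe sets, the 5 with a pattern most like SNAR-H over the 6 arrays were FAM200C (r = 0.996), PSAP (0.996), RBM26 (0.990), AKAP9 (0.988) and MCOLN2 (0.988). They were the closest of many candidates over few arrays, and the r values are descriptive. PSAP, the precursor of lysosomal saposins, stood at 11.06, 11.02 and 11.04 in exposed cells, against 10.96, 10.98 and 10.99 in unexposed cells, a change of 0.06. AKAP9, a scaffold protein of the Golgi and centrosome, had a change of 0.33, and FAM200C one of 0.57. None of the 5 passed among genes (limma adjusted p 0.0629 to 0.560). The groups are separate in SNAR-H, so genes picked for its pattern tend to separate them too. Their p-values are therefore no evidence apart from SNAR-H. Of the SNAR profiles, that of SNAR-B1 (16874508) was the closest to SNAR-H, with r = 0.970, and 0.131% of all probe sets had a higher r. For the farthest profiles this share was larger, at 7.48% for SNAR-D, 11.1% for SNAR-I and 17.7% for SNAR-G1.

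Other RNAs made by RNA polymerase III gave values of the same sign in part. Of this list 6 genes were measured, 5 had positive changes and 0 passed among genes by limma, with 2 at an unadjusted p under 0.05, against 18.9% of all genes. Their median change was 0.30, against 0.0029 over all genes, and without unexposed replicate 1 it was 0.09, with 4 of 6 positive. VTRNA1-3, a vault RNA of the cytoplasm, stood at 8.58, 8.51 and 8.52 in exposed cells, against 8.12, 7.94 and 8.31 in unexposed cells, a change of 0.42 (SE 0.09, limma adjusted p = 0.0603). RPPH1, the RNA of ribonuclease P, which trims transfer RNA precursors, stood at 6.54, 6.60 and 6.62 in exposed cells, against 6.32, 6.16 and 6.20 in unexposed cells. Its change was 0.36 (SE 0.08, limma adjusted p = 0.0579). In both genes the groups did not overlap, as in 13.2% of all genes. VTRNA1-1 had a change of 0.33 and VTRNA1-2 one of 0.27, with intervals that included 0. RMRP, the RNA of ribonuclease MRP, averaged 12.59 ± 0.10 across exposed and 12.57 ± 0.11 across unexposed arrays (SD, n = 3 each), a change of 0.02. VTRNA2-1 had a change of -0.20.

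Genes of double-stranded RNA-binding and related proteins mostly had changes of the opposite sign, none of which passed the test. Of 18 listed genes 12 were measured, while ILF2, RAN, STAU1, STAU2, ADAR and DICER1 had no named probe set. Negative changes were seen in 11 of the 12, with a median of -0.13, where 50.7% of all genes were positive. With arrays centred on ribosomal protein genes the median was -0.07 and 3 of the 12 were positive. That centring raises all changes alike, and 64.1% of all genes were positive under it. None passed among genes by limma, against 1.4% of all genes higher and 1.67% lower, and 5 had an unadjusted p under 0.05 with a negative sign, against 10.2% of all genes. Counted in either direction, 1 of the 12 had an unadjusted p under 0.05 with arrays centred on ribosomal protein genes, and 1 without exposed replicate 2. ZNF346, a double-stranded RNA-binding zinc finger protein, stood at 6.49, 6.72 and 6.76 in exposed cells, against 6.90, 7.06 and 7.05 in unexposed cells, a change of -0.35 (limma adjusted p = 0.104). It passed when the probe sets of each gene were averaged, against 4.44% of all genes that passed as lower there. PURB, a nucleic acid-binding protein, had a change of -0.23 (limma adjusted p = 0.178). XPO5, the exporter of short structured RNAs, was at -0.11, and SSB, the La protein that binds the uridine ends of polymerase III transcripts, was at -0.09. EIF2AK2, a kinase activated by double-stranded RNA, was the single positive member, at 0.12.

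Of the polymerase III machinery and its regulators 11 genes were measured. Their median change was 0.01, 6 were positive and none passed among genes by limma, with 2 at an unadjusted p under 0.05, a share near the 18.9% of all genes. The 2 were RB1 and MAF1, known as repressors of polymerase III transcription. RB1, the retinoblastoma protein, stood at 8.93, 8.95 and 8.90 in exposed cells, against 8.69, 8.65 and 8.73 in unexposed cells, a change of 0.24 (SE 0.06, limma adjusted p = 0.0645). MAF1 had a change of 0.24 (SE 0.08, limma adjusted p = 0.169). Among polymerase subunits POLR3B was at 0.16, POLR3E at 0.08, POLR3G at -0.10 and POLR3C at -0.28. MYC, an activator of polymerase III transcription, was at 0.18.

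**Figure D3:**
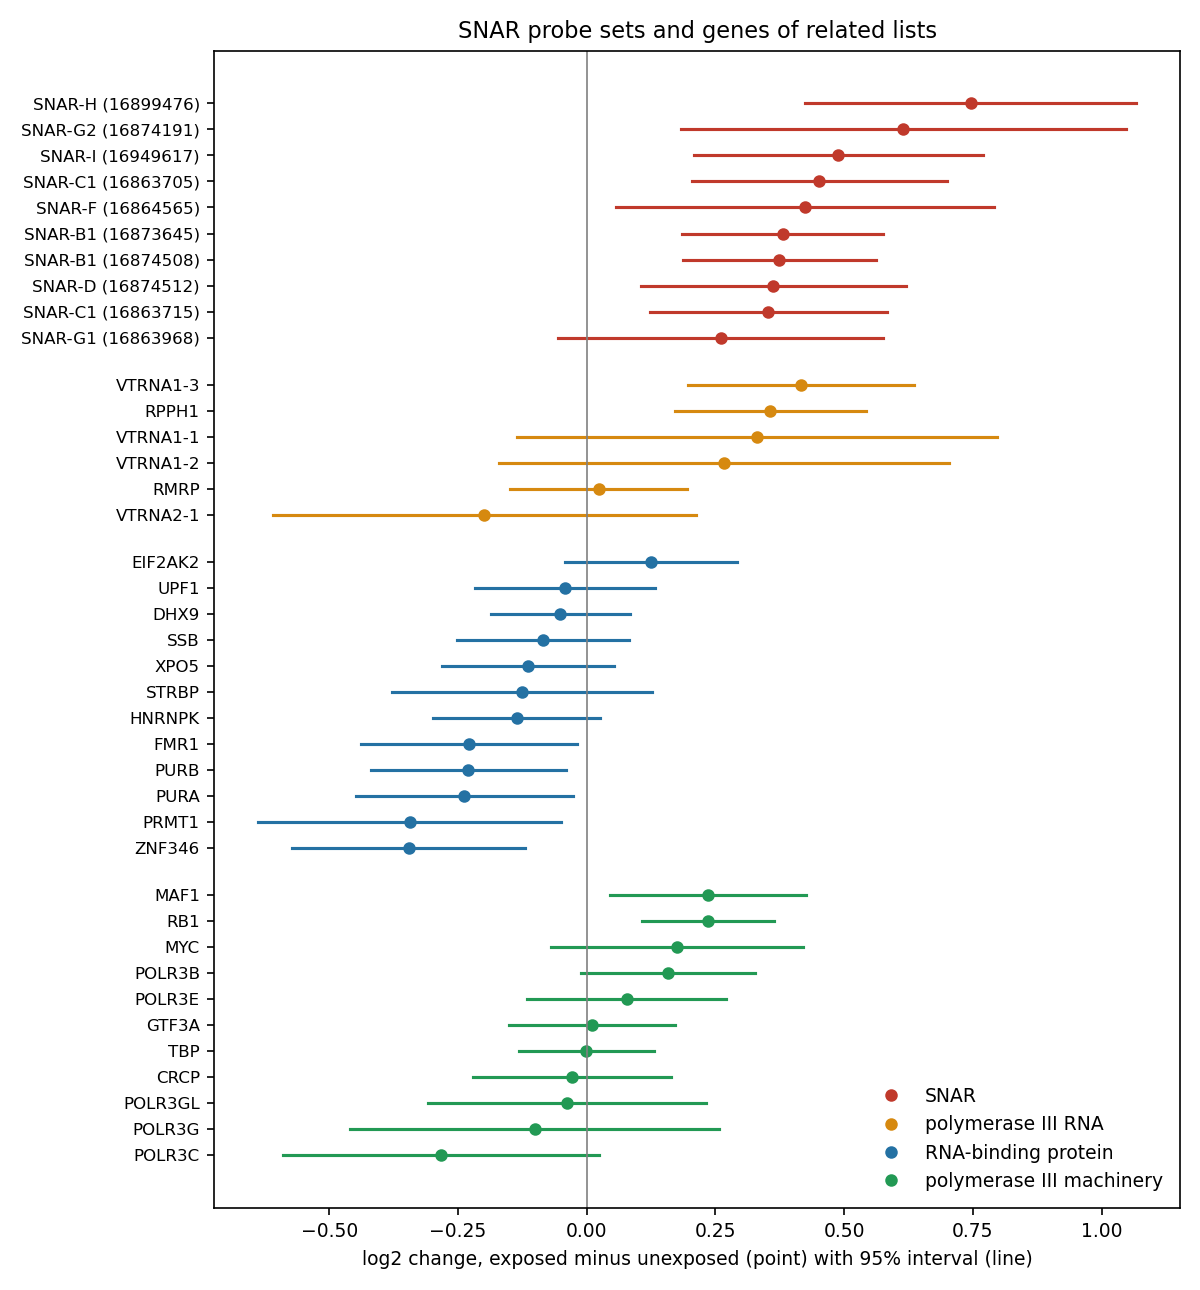
Log2 change, exposed minus unexposed (point), with its 95% interval from limma (line), for the 10 SNAR profiles, 6 other polymerase III RNAs, 12 genes of RNA-binding and related proteins and 11 genes of the polymerase III machinery. All SNAR points lie right of 0 and the interval of SNAR-G1 includes 0, whereas 11 of the 12 genes of RNA-binding and related proteins lie left of 0.

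Per the labels, total RNA was isolated with an RNeasy column protocol, and such columns recover short RNAs less fully than long ones. Other short RNAs and the long noncoding genes measured on the same arrays are given for comparison, in groups chosen after the SNAR values were seen. Of 23 small Cajal body RNAs, which guide the modification of spliceosomal RNAs, 13 had positive changes, with a median of 0.03 and a range of -0.59 to 0.56. None passed among genes by limma, and 6 had an unadjusted p under 0.05, 1 of them higher and 5 lower in exposed cells, against 18.9% of all genes in either direction and 10.2% lower. Of 1072 microRNA precursor genes 47.2% had positive changes, with a median of -0.02, and 2 passed as higher and 2 as lower. Of 1398 long noncoding genes 55.3% were positive, with a median of 0.02, and 8 passed as higher and 10 as lower. Of all genes 1.4% passed as higher and 1.67% as lower. All of these groups of noncoding RNAs were on average dimmer than the SNAR profiles. On the exposed arrays the small Cajal body RNAs averaged 5.77 to 5.85, the microRNA precursors 3.41 to 3.42 and the long noncoding genes 3.94 to 3.95. The 10 SNAR profiles averaged 8.93 to 9.20 there. The part of RNA recovery in the SNAR values was not tested. The 5 measured genes next to a SNAR gene (BSPH1, GMNC, IZUMO2, LRRC4B and SYT3) had changes of -0.08 to 0.07 and none passed, with 0 at an unadjusted p under 0.05 (limma).

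All 10 profiles had positive changes in every setting tried, but not every setting could move them. The replicate block, the fit without the mean-variance trend and the filter on level leave the fitted change as it is. They bear on the p-values alone. Centring shifts the change of every probe set by the same amount. Only quantile normalization again and leaving out each array in turn could move the profiles separately. Without exposed replicate 1, the array with the highest SNAR signals, the median change of the 10 profiles was 0.32. Adjusted over probe sets, 0 to 3 SNAR probe sets passed, and those that did in any setting were SNAR-H and the SNAR-B1 pair 16874508 and 16874510. With quantile normalization again 1 passed, where 0.436% of all probe sets were called higher. With arrays centred on ribosomal protein genes 1 passed, against 0.112% of all probe sets. Among probe sets above the median level 3 passed, against 2.29% of those tested. Adjusted over genes, 0 to 6 SNAR genes passed, the 6 with averaged probe sets. SNAR-H and SNAR-B1 both passed with quantile normalization again, against 1.73% of all genes, and above the median level, against 3% of all genes. SNAR-H passed with arrays centred on their medians, against 1.18%, and on ribosomal protein genes, against 0.316%. The ribosomal protein genes had themselves a median change of -0.09, with 35 of 46 negative. Centring on them therefore raised all changes alike, and 62.8% of all probe sets were then positive. Without exposed replicate 3 SNAR-B1 alone passed, against 0.954%.

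**Figure D4:**
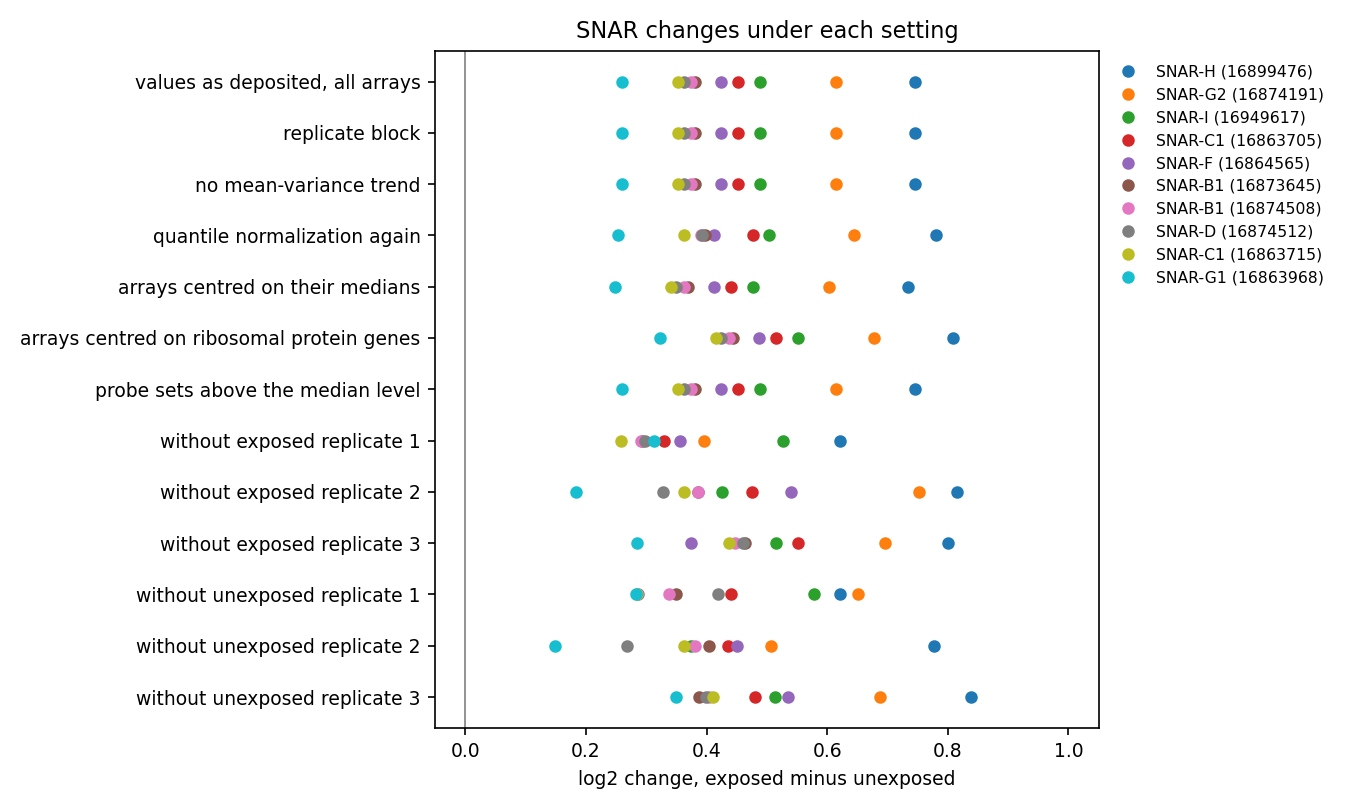
Log2 change, exposed minus unexposed, of the 10 SNAR profiles (colours) under each processing setting (rows). All points lie right of 0. The block, the fit without the trend and the filter on level leave each point where it is with the values as deposited. SNAR-H has the largest change in each row but the one without unexposed replicate 1, where SNAR-G2 exceeds it.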

How the data were processed

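U-87 MG cells were measured on 1-colour Affymetrix arrays, 3 exposed and 3 unexposed, grouped by the sample titles. The description field calls the exposed samples control cells, but their titles and source names say exposed. The deposited table holds log2 values summarised by the authors with RMA (background correction, normalization between arrays, 1 value per probe set), per the submitters' processing notes, where the named tools are RMA, Transcriptome Analysis Console 3.0 and Affymetrix Expression Console 3.0. RMA makes arrays alike, so a change in total RNA per cell would not show. There are no detection calls or read depths, so precision depends on how many arrays there were. Of the probe sets, 16098 carry 1 gene symbol, 0 carry several and 37519 are unnamed. All 14884 symbols stand in RefSeq's gene table.

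The values were fitted with limma 3.58.1 in R 4.3.3 (lmFit and trended eBayes, two-sided tests, no covariates), and p-values were adjusted by Benjamini-Hochberg over all probe sets or, for genes, over the brightest probe set of each. The procedure was tested on simulated arrays. Changes are exposed minus unexposed. The members, the related lists and the rule for named genes were chosen with earlier results of these data known. The text names every SNAR probe set and the 5 genes most like SNAR-H. For the polymerase III RNAs, the polymerase III machinery, the RNA-binding proteins and the gonadotropin cluster it names the 2 most significant members of either sign. Cell type markers, small Cajal body RNAs, microRNA precursors and long noncoding genes were not named by this rule. Further list members were named for their role after their values were seen. Correlations used scipy 1.17.1 and figures matplotlib 3.10.9. The alternatives were a replicate block, no trend, quantile normalization again, centring on array medians or on ribosomal protein genes, a filter on dim probe sets, averaging over a gene's probe sets and leaving out each array.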

Additional observations from a re-analysis of the deposited data

How the results depend on the processing

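All 10 SNAR profiles kept a positive change under every setting tried, though the block, the fit without a trend and the filter cannot move it. The median change over them was 0.40 and lay between 0.39 and 0.46 under the scalings, the filter, the block and the fit without a trend, and between 0.32 and 0.46 with each array left out. The number of SNAR probe sets that passed was 0 as deposited, 1 with quantile normalization again, 1 with arrays centred on ribosomal protein genes, 3 among probe sets above the median level (where fewer tests are adjusted for) and 1 when adjusted over genes. Adjusted over probe sets it was 0 with any array left out. Among all probe sets 0 passed there too, except without exposed replicate 3, where 0.248% passed as higher. Over genes, 1 SNAR gene passed as deposited, 6 with a gene's probe sets averaged (where the variance is also pooled over named genes alone), 2 with quantile normalization again, 2 above the median level, 0 with the replicate block, 0 without the trend and 0 to 1 with each array left out, the 1 being SNAR-B1 without exposed replicate 3. These counts of SNAR genes by setting were added after seeing the data. Among all genes 0 passed without the trend. With an array left out 0 of all genes passed too, except without exposed replicate 3 (0.954% higher) and without unexposed replicate 1 (0.228% higher). The SNAR-H change was 0.78 with quantile normalization again (limma adjusted p = 0.0477), 0.81 with ribosomal protein centring (0.0481), 0.75 above the median level (0.0306) and 0.75 adjusted over genes (0.0372), and it passed in these settings. With each array left out it lay between 0.62 and 0.84, with limma adjusted p of 0.0912 to 0.175 over probe sets. In the list counts, 1 gene of the RNA-binding protein list (ZNF346) and 1 polymerase III gene (RB1) passed when a gene's probe sets were averaged, and RB1 (1 gene) passed above the median level. Of the other polymerase III RNAs 2 (RPPH1 and VTRNA1-3) passed in each of these settings. The gonadotropin cluster stayed at 0. With averaged probe sets 3.44% of all genes passed as higher and 4.44% as lower. Above the median level 3% of those tested passed as higher. As deposited the shares were 1.4% higher and 1.67% lower. The titles do not say whether the replicate numbers pair the samples. Deviations of same-numbered arrays correlated at -0.0164, -0.0253 and 0.00964 over all probe sets. These values show no broad shared shift but cannot settle whether the cultures were paired. With the replicate number as a block 0 probe sets and 0 genes passed in the whole table, and SNAR-H had a limma adjusted p of 0.185 over probe sets. The block leaves the median SNAR change at 0.40 by design. The causes of these differences were not tested. There were no detection calls, so whether the dim members SNAR-G1 and SNAR-F stood above background was not tested, and the largest SE, 0.19, was that of SNAR-G2.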
